A study of Mus musculus with 4 samples.

Results

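The Golgi glycosyltransferases that build the sugar chains of mucins and N-linked glycoproteins were examined in colonic epithelial cells of mice with dextran sulfate sodium (DSS) colitis. Members were chosen by name, as every listed gene whose symbol began with *Fut*, *Galnt*, *B3galt*, *B3gnt*, *B4galt*, *B4galnt*, *Gcnt*, *Mgat*, *St3gal*, *St6gal*, *St6galnac*, *St8sia* or *C1galt1*, which gave 77 of the 16015 genes listed. They comprised 22 chain-extending galactosyl-, N-acetylglucosaminyl- and N-acetylgalactosaminyltransferases, 19 sialyltransferases, 14 genes named as polypeptide GalNAc-transferases, 8 O-glycan core and branch enzymes, 7 fucosyltransferases and 7 N-glycan branching enzymes. One of the 14, *Galnt6os*, is an antisense RNA that met the rule by its name alone, and *St6galnac2* was listed under 2 gene identifiers. RNA was sequenced from 2 control libraries, labelled WT, and 2 libraries labelled *Bmal1* cKO. Per the methods, controls were *Bmal1* fl/fl mice and *Bmal1* cKO mice were *Villin-CreERT2; Bmal1* fl/fl, in which a Cre driven by the Villin promoter of intestinal epithelium was activated by tamoxifen injected on 5 consecutive days. Whether controls also received tamoxifen is not given in the sources used here. All mice were on a C57BL/6 background, aged 2 to 4 months, and drank 3% DSS, a polysaccharide that injures the colonic epithelium, for 5 days and then water for 2 days before cells were collected on day 7.

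Secreted and membrane-bound mucins of the colon carry dense O-glycans. Polypeptide GalNAc-transferases place the first GalNAc on serine or threonine, core enzymes add the next sugar, and branching, elongating, fucosylating and sialylating enzymes then decide how long the chain becomes and what its end looks like. N-glycans arrive in the Golgi as mannose-rich trees, are trimmed by mannosidases, and receive their antennae from the Mgat enzymes before galactose, fucose and sialic acid are added. These chains make the mucus gel hold water, shield the protein backbone from bacterial proteases and carry the blood group and Lewis structures of the gut surface. BMAL1 is a circadian transcription factor that binds the E-box CACGTG together with CLOCK, and the comparison of the groups addresses which transcripts differ when the gene is targeted in the epithelium of inflamed colon.

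Levels are normalized counts, that is, a gene's reads scaled by the DESeq2 size factor of the library. The libraries held 10312791 to 14156639 reads on listed genes. The targeted gene, listed as *Arntl*, counted 358 and 342 in control and 341 and 289 in *Bmal1* cKO (log2 fold change -0.16, limma adjusted p = 0.389), and since a count over the whole gene also takes in exons that a floxed allele keeps, it does not check the deletion. Directions below refer to libraries as labelled, *Bmal1* cKO relative to control. Across all tested genes the log2 fold change declined with the GC content of the exons (Spearman's rho -0.61 over 13975 genes, a description of these libraries). Most members are therefore given both uncorrected and after each library was corrected for GC content and exon length. Some members without a call are given uncorrected only. The summed normalized counts of 8 epithelial markers were 111412 and 129083 in control and 112124 and 119462 in *Bmal1* cKO, and the ranges overlapped. By the limma test given below, *Krt20* was called higher (0.68), *Cdx2* (-1.47) and *Krt18* (-1.39) lower, and the other 5 were not called. These are 12.5% and 25.0% of the list, beside 29.0% and 27.7% of all tested genes. After correction 3 were higher and 1 lower. An overlapping sum does not show that each marker was alike in both groups. The sums of the leukocyte, stroma and endothelium, and goblet cell lists were each lower in both *Bmal1* cKO libraries and are given with the members they moved with. In bulk samples, fewer cells of a type and less RNA per cell cannot be told apart.

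A total of 70 of the 77 members had a mean normalized count of at least 10 and were tested. Of these, 20 were called higher and 15 lower in *Bmal1* cKO (limma on log2(value + 1), two-sided, Benjamini-Hochberg adjusted p under 0.05 over all 13983 genes tested). Over all tested genes 29.0% were called higher and 27.7% lower, so the members' shares of 28.6% and 21.4% lay near or below the background. The same shares of all genes are the background for the uncorrected counts of each class and list below. The members' median log2 fold change was 0.16 beside -0.037 for all genes tested, and was 0.013 without control library 1, 0.090 without *Bmal1* cKO library 2 and -0.045 with no filter on low values. With the libraries scaled to equal totals the median of all genes moved by -0.22, the members' median turned to -0.064, and 14 members were called higher and 20 lower (background 22.1% and 34.9%). After the GC and length correction 17 were called higher and 7 lower (background 17.0% and 18.1%). Leaving out 1 library at a time gave 13 to 20 members higher and 7 to 13 lower, with the lowest counts of both when *Bmal1* cKO library 2 was left out and 8 lower when *Bmal1* cKO library 1 was. Over all genes these fits called 19.0% to 22.6% higher and 15.8% to 20.4% lower. The minimum mean was reached through the control libraries alone by 6 tested members, *B3gnt8*, *B4galt2*, *Galnt15*, *Galnt18*, *St3gal2* and *St8sia6*, and through *Bmal1* cKO alone by *Fut1*, and since a gene that passes in this way had to differ they are described below by their values with no test. Without these 7 the counts were 20 higher and 11 lower of 63 uncorrected, and 17 and 5 corrected, and the median log2 fold change was 0.26 and 0.12 corrected. The share of all genes under the same restriction was not computed, so these counts have no like background.

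Calls in the same direction under both fits were found for 10 members higher and 4 lower, or 3 lower without *Galnt15*, where the background was 11.3% and 12.7% of genes. Under all 15 alternative ways of processing, 8 members remained called higher, namely *Mgat4c*, *Mgat4a*, *Mgat2*, *C1galt1*, *B3galt5*, *B4galnt3*, *Fut9* and *Galnt4*, and 3 remained called lower, namely *St3gal1*, *B4galt3* and *B4galt5*. These were 13.3% and 5.0% of the 60 members present in every fit, beside 8.05% and 7.14% of all 11227 such genes. Of the other calls, 2 members called lower, *Mgat4b* and *St6galnac6*, were called higher after the correction, as were 1.17% of all genes, and none went from higher to lower, beside 0.987%. Of the members with no uncorrected call, 5 were called higher after it and 3 lower, *St8sia6* among the 3, beside 4.48% and 4.38% of all genes. No exact test could pass the threshold, because the smallest p that a permutation of 2 against 2 libraries can give is 0.333, and the p-values below measure the spread between these libraries only.

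**Figure D1:**
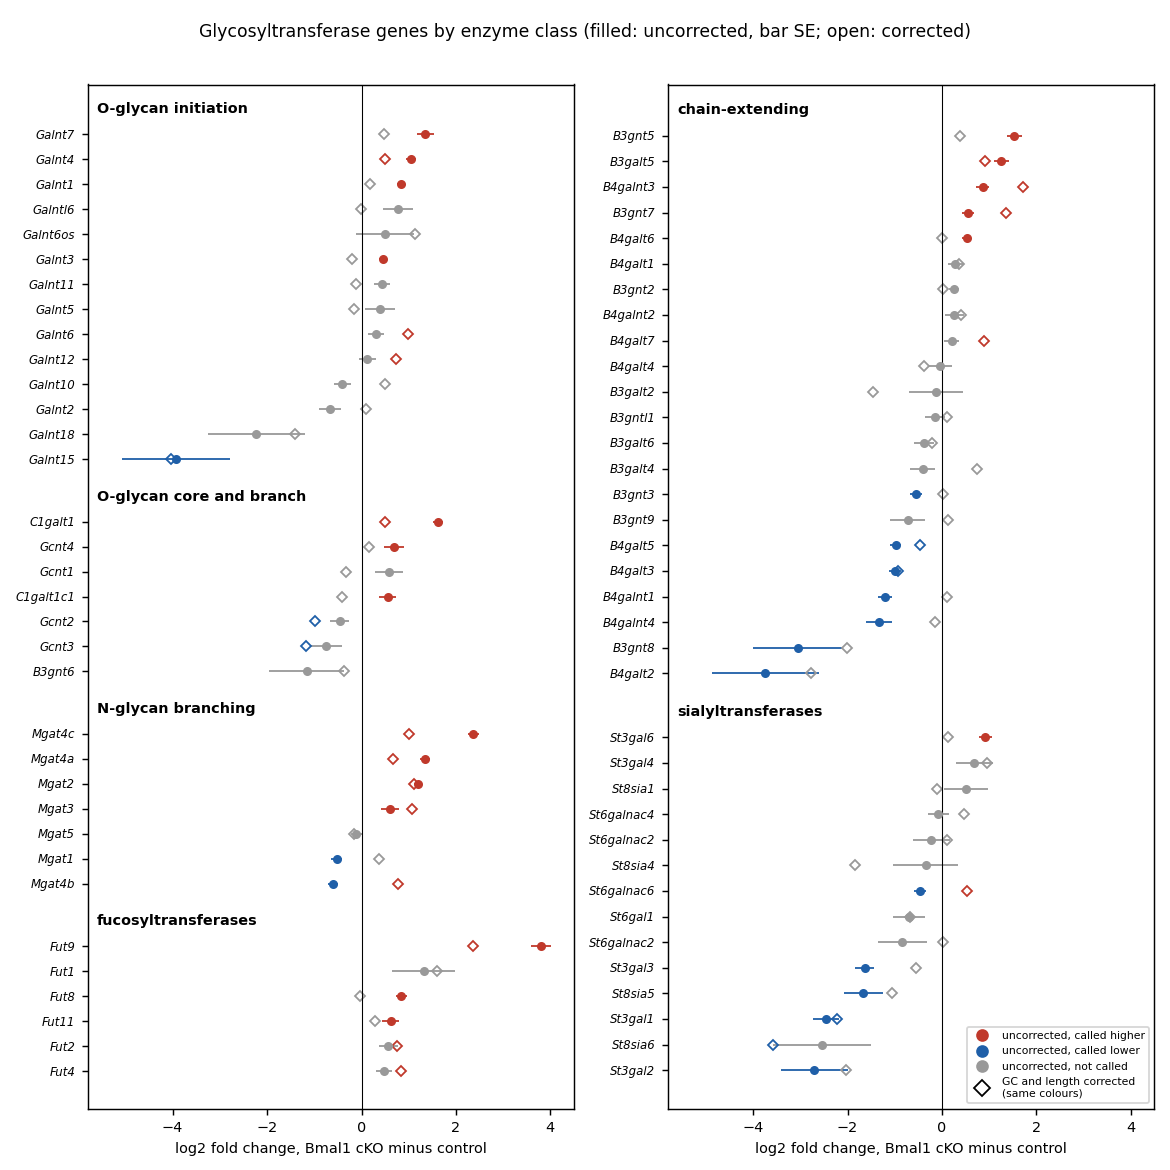
Log2 fold change of each of the 70 tested members, *Bmal1* cKO minus control, by enzyme class. Filled circles are the uncorrected fit with its standard error, open diamonds the GC and length corrected fit, red called higher, blue called lower and grey not called. *Fut9* lies farthest to the right in both fits, *Mgat4c* comes next to it as a circle but not as a diamond, *St3gal1* is blue in both, and *Mgat4b* and *St6galnac6* are blue as circles and red as diamonds.

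O-glycan initiation was represented by 14 listed members, of which 4 were called higher, 1 lower and 9 were not called, with a median log2 fold change of 0.42 (0.13 corrected, 0.18 without *Bmal1* cKO library 2 and 0.23 without control library 1). The member called lower was *Galnt15*, and without it and *Galnt18* the corrected median was 0.33. *Galnt7*, an enzyme that prefers peptides already carrying GalNAc, had the highest level per kb of exon in the class over both groups together, *Galnt12* being higher in control, and counted 2182 and 2916 normalized counts in control and 5741 and 7186 in *Bmal1* cKO. Both *Bmal1* cKO libraries were above both control libraries, as was so for 40.3% of tested genes. Its log2 fold change was 1.35 (SE 0.18, adjusted p = 0.00251), a 2.54-fold ratio of the means, and 0.48 (adjusted p = 0.0882) after correction, which misses the threshold. *Galnt4* (GRCm38 chromosome 10, positions 99108159 to 99113247), which also prefers glycosylated peptides, had 1889.9 and 2083 normalized counts in control and 3834 and 4378 in *Bmal1* cKO. The groups did not overlap, and it rose by 1.05 (SE 0.11, adjusted p = 0.0012) uncorrected and 0.50 (adjusted p = 0.0193) corrected on the log2 scale. About 8.25% of its exon bases are shared with *Poc1b* on the same strand. *Galnt1*, one of the enzymes that act on bare peptides, counted 2089 and 2060.0 in control against 3577 and 3798 in *Bmal1* cKO. Its uncorrected log2 fold change of 0.83 (SE 0.088, adjusted p = 0.00121) shrank to 0.17 (adjusted p = 0.181). *Galnt3*, another such enzyme, was called higher uncorrected at 0.46 (adjusted p = 0.00742) and had -0.20 (adjusted p = 0.12) corrected, with the opposite sign. The call of *Galnt3* was also lost when *Bmal1* cKO library 2 was left out (adjusted p = 0.0524) and when library totals were used for scaling.

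The remaining initiation genes gave few calls. *Galnt12*, an enzyme abundant in colon, had 1386 and 1895 normalized counts in control and 1603 and 1934 in *Bmal1* cKO, and the ranges overlapped. Its log2 fold change was 0.12 (adjusted p = 0.591) and, corrected, 0.74 (adjusted p = 0.0309). *Galnt6* likewise was called only after the correction, at 0.97 (adjusted p = 0.0171), and shares 11.4% of its exon bases with the antisense *Galnt6os*, so that reads of both cannot be told apart without strand. *Galnt2* had 882 and 561 in control against 485 and 407 in *Bmal1* cKO and a log2 fold change of -0.66 (adjusted p = 0.0588). Corrected it had the opposite sign, at 0.091 (adjusted p = 0.76), and with libraries scaled to equal totals it was called lower at -0.89 (adjusted p = 0.0283). The annotation gives 90.0% of *Galnt2* exon bases also to *Gm20388*, so its count is uncertain. *Galnt10* was not called in either fit, with a log2 fold change of -0.41 uncorrected and, with the opposite sign, 0.49 corrected. With libraries scaled to equal totals *Galnt10* was called lower at -0.64 (adjusted p = 0.0261). *Galnt18* had 71.8 and 11.9 in control against 3.09 and 9.46 in *Bmal1* cKO. *Galntl6*, *Galnt11* and *Galnt5* lay between 0.40 and 0.78 uncorrected and between -0.16 and -0.013 corrected, and were not called in either fit.

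Core and branch enzymes of O-glycans numbered 8, of which 7 were tested, 3 were called higher and 4 were not called. The median log2 fold change was 0.55, but -0.37 after correction, 0.12 without control library 1 and 0.37 without *Bmal1* cKO library 2. *C1galt1* (GRCm38 chromosome 6, positions 7844842 to 7875687) encodes the T-synthase that adds galactose to make core 1, the base of most O-glycans. It had 4728 and 4838 normalized counts in control and 13979 and 15392 in *Bmal1* cKO. Each *Bmal1* cKO library was far above each control library, and the ratio of means was 3.07. The log2 fold change was 1.62 (SE 0.11, adjusted p = 0.000533) uncorrected and 0.50 (adjusted p = 0.0212) corrected, so the call held and its size fell to under 1 log2 unit. *C1galt1c1*, which encodes Cosmc, the chaperone without which the T-synthase does not fold, counted 629 and 787 in control against 909 and 1176 in *Bmal1* cKO. Its uncorrected log2 fold change was 0.55 (SE 0.17, adjusted p = 0.0411), and the corrected one was -0.41 (adjusted p = 0.0918), of opposite sign and called lower once the replicate block was added to the correction (adjusted p = 0.047). Leaving out any 1 library took the *C1galt1c1* adjusted p to between 0.0585 and 0.202. The ratio of synthase to chaperone per kb was higher in both *Bmal1* cKO libraries, 1.79 and 1.46 in control and 3.66 and 3.11 in *Bmal1* cKO. The exons of these genes differ by 0.627 percentage points in GC content, and after correction the ratio still differed by 0.908 on the log2 scale. This pair was chosen after the values were seen and was not tested.

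Among the branching enzymes, *Gcnt3*, the mucin-type enzyme that makes core 2 and core 4, had 1506 and 2879.9 normalized counts in control and 1064 and 1452 in *Bmal1* cKO. Neither *Bmal1* cKO library reached a control library, as in 41.7% of tested genes, but control library 1 lay close to *Bmal1* cKO library 2. Its log2 fold change was -0.74 (SE 0.33, adjusted p = 0.102) and -1.18 (adjusted p = 0.0367) after correction. Leaving out 1 library moved it between -0.28 and -1.21, with a call only without control library 1 (adjusted p = 0.0341), and scaling to equal totals called it lower as well. *Gcnt2*, the I-branching enzyme, showed the same order, with 464 and 517 in control against 430.0 and 293 in *Bmal1* cKO. It gave -0.46 (adjusted p = 0.108) uncorrected and -0.99 (adjusted p = 0.0169) corrected, with -0.19 to -0.74 on leaving out 1 library, a call without *Bmal1* cKO library 1 (adjusted p = 0.0395) and a call with libraries scaled to equal totals. *Gcnt4*, a further core 2 enzyme at a low level, counted 138 and 109 in control against 182 and 214 in *Bmal1* cKO, and its call of 0.68 (SE 0.21, adjusted p = 0.0399) was lost under the correction at 0.16 (adjusted p = 0.582) and on leaving out any library (adjusted p between 0.0747 and 0.189). *Gcnt1*, the widely expressed core 2 enzyme, had 719 and 1351 in control against 1563 and 1388 in *Bmal1* cKO. It was not called at 0.58 (adjusted p = 0.143), nor corrected at -0.33 (adjusted p = 0.411), of opposite sign. *B3gnt6*, the core 3 synthase of colon, ranged from 28.8 to 222 normalized counts with overlapping groups and gave -1.17 (adjusted p = 0.248).

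N-glycan branching enzymes were all tested, with 4 of 7 called higher, 2 lower and 1 not called. The class median was 0.61 and, corrected, 0.77, but 0.33 without control library 1 and 0.38 with libraries scaled to equal totals. *Mgat1* adds the first GlcNAc that opens the complex pathway, and it had 873 and 799.6 normalized counts in control and 553 and 608 in *Bmal1* cKO. It was lower in both *Bmal1* cKO libraries, with a log2 fold change of -0.53 (SE 0.11, adjusted p = 0.0113), but 0.36 (adjusted p = 0.0843) after correction. The call was also lost without control library 1 (adjusted p = 0.0698) or without *Bmal1* cKO library 1 (0.0653). *Mgat2* (GRCm38 chromosome 12, positions 69184157 to 69186770), which adds the second GlcNAc and so commits a glycan to the complex type, counted 802 and 800.5 normalized counts in control and 1894 and 1798 in *Bmal1* cKO. The groups stood clearly apart, with a log2 fold change of 1.20 (SE 0.089, adjusted p = 0.000565), which hardly moved after correction, at 1.11 (adjusted p = 0.00319). *Mgat2* per *Mgat1*, another pair chosen after the values were seen, was 0.919 and 1.001 in control and 3.42 and 2.96 in *Bmal1* cKO as a ratio of normalized counts, a log2 difference of 1.73 that was 0.74 after correction.

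The Mgat4 enzymes add a β1,4-linked antenna, and *Mgat4a* and *Mgat4b* are its established transferases. *Mgat4a* (GRCm38 chromosome 1, positions 37439340 to 37541016) had 4516 and 4962 normalized counts in control and 12135 and 11784 in *Bmal1* cKO. It rose in both *Bmal1* cKO libraries by 1.34 (SE 0.10, adjusted p = 0.000619) on the log2 scale and by 0.67 (adjusted p = 0.00979) after correction. *Mgat4b* had 3128 and 3586 normalized counts in control and 2094 and 2318 in *Bmal1* cKO. The uncorrected fit called it lower at -0.60 (SE 0.11, adjusted p = 0.00725), though not without *Bmal1* cKO library 1 (adjusted p = 0.0645), and the corrected fit called it higher at 0.77 (adjusted p = 0.0133). With 60.4% it has the highest exon GC content of the tested members, and *Mgat4a* has 44.8%. The difference between these isozymes depended on the correction, as *Mgat4a* less *Mgat4b* was 1.94 on the log2 scale uncorrected and -0.10 corrected. *Mgat4c* (GRCm38 chromosome 10, positions 101681487 to 102391469), a relative of both, had 5071 and 5204 normalized counts in control and 24979 and 28107 in *Bmal1* cKO. The log2 fold change of 2.37 (SE 0.12, adjusted p = 0.000533), a 5.17-fold ratio, fell to 0.997 (adjusted p = 0.00507) after correction and stayed past the threshold in each. Its exons hold 35.3% GC, near the low end of the members. *Mgat3*, which adds the bisecting GlcNAc, was higher at 0.61 (adjusted p = 0.041) and at 1.08 (adjusted p = 0.0141) corrected. It was not called with libraries scaled to equal totals, at 0.38 (adjusted p = 0.121). Leaving out control library 1 or either *Bmal1* cKO library also lost the call, and the log2 fold change ranged from 0.33 to 0.89 on leaving out 1 library. *Mgat5*, the enzyme of the β1,6 antenna, had 1711 and 2019 in control against 1713 and 1738 in *Bmal1* cKO, with overlapping groups and a log2 fold change of -0.11 (adjusted p = 0.436).

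**Figure D2:**
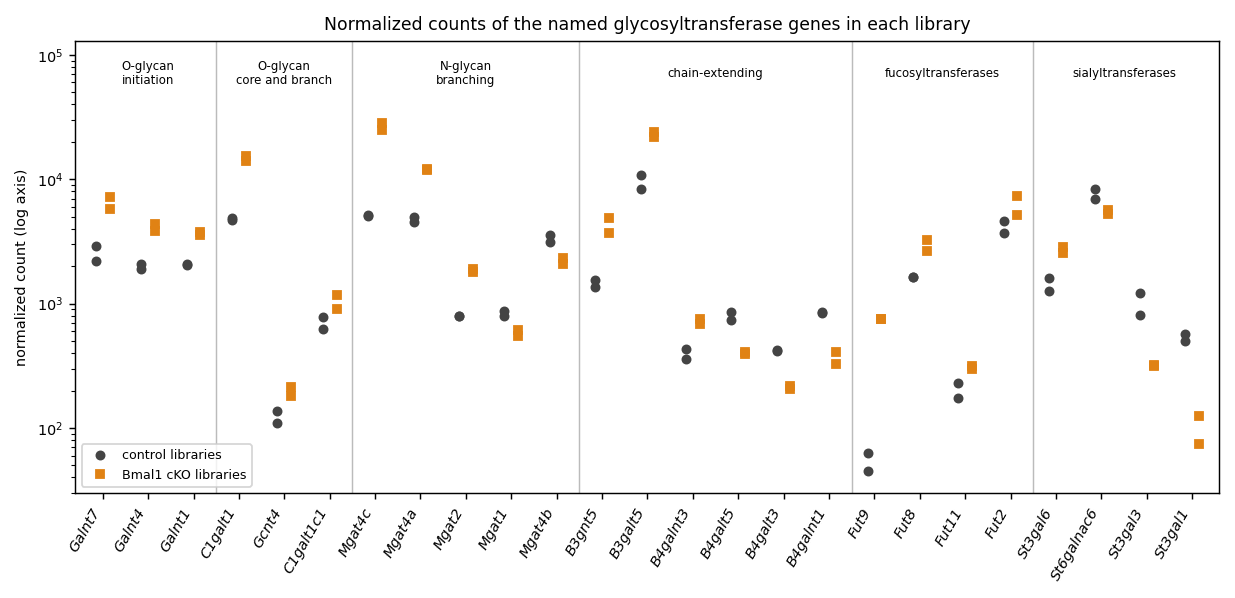
Normalized count of the members named by rule in each library, on a log axis, with control libraries as grey circles and *Bmal1* cKO libraries as orange squares, grouped by enzyme class. Squares lie above circles for *Mgat4c*, *C1galt1*, *B3galt5* and *Fut9*, and below them for *St3gal1*, *St3gal3* and *B4galt3*.

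Chain-extending enzymes, the most numerous class, gave 5 calls higher, 7 lower and 10 without a call among 22 tested, the 7 including *B3gnt8* and *B4galt2*. Their median log2 fold change was -0.13 and, corrected, 0.070, with -0.055 without *Bmal1* cKO library 1 and -0.30 without library 2, and -0.085 (0.11 corrected) without *B3gnt8* and *B4galt2*. *B3galt5* (GRCm38 chromosome 16, positions 96235801 to 96319859), which adds β1,3-galactose to build type 1 chains of the gut, had the highest level per kb among all members in *Bmal1* cKO, 3725 normalized counts per kb against 1569 in control. It had 10902 and 8426 normalized counts in control and 22038 and 23844 in *Bmal1* cKO, with no overlap. The log2 fold change was 1.26 (SE 0.16, adjusted p = 0.00223) and 0.92 (adjusted p = 0.0153) after correction. *B4galnt3* (GRCm38 chromosome 6, positions 120203073 to 120294559), which caps GlcNAc with GalNAc to give LacdiNAc, counted 357 and 433 normalized counts in control and 746 and 687 in *Bmal1* cKO. It rose by 0.86 (SE 0.14, adjusted p = 0.0044) on the log2 scale, and by 1.71 (adjusted p = 0.00301) after correction, and its exons hold 56.6% GC. *B3gnt7*, which elongates sulfated poly-N-acetyllactosamine, moved in the same way, with 2065 and 1633 in control against 2703 and 2663 in *Bmal1* cKO. Its log2 fold change was 0.55 (SE 0.13, adjusted p = 0.0178) and 1.37 (adjusted p = 0.00348) corrected. About 12.6% of its exon bases overlap the antisense *Gm28626* on the opposite strand. Without *Bmal1* cKO library 1 or 2, or with libraries scaled to equal totals, *B3gnt7* was not called (adjusted p up to 0.111).

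Among the members matched to a promoter, *B3galt5* and *B3gnt7* were the 2 called higher in both fits whose promoter held the E-box CACGTG, and their promoters are shown for that reason. The window runs from 250 bases before to 50 bases after a RefSeq transcript start (GRCm38.p6), and 54 of the 76 member symbols matched this table. For *B3galt5*, which has 3 listed starts, the window is chr16:96273263-96273562 on the plus strand. For *B3gnt7* it is chr1:86302971-86303270, also on the plus strand. The E-box is in capitals and lies 53 bases before the start in *B3galt5* and 34 bases before it in *B3gnt7*.
B3galt5: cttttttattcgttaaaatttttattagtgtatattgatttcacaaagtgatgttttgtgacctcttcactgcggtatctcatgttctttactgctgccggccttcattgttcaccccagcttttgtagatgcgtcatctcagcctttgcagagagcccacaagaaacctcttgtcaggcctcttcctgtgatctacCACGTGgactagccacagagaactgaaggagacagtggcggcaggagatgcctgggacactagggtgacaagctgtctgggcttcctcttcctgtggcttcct
B3gnt7: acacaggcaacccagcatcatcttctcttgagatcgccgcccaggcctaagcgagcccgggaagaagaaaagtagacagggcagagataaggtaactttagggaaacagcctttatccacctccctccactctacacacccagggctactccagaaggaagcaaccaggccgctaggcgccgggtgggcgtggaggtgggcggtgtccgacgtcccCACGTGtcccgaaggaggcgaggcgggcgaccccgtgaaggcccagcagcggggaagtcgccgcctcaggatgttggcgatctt
Read on both strands, where this palindrome gives the same matches, CACGTG was present in 5 of 75 member promoters (6.67%) and in 7.15% of all 32851 promoters. The other 3 members with it were *B3galt2* and *B3gntl1*, not called in either fit, and *St6galnac3*, too low to test. The related CACGTT, searched on both strands, was found in 4 member promoters (5.33%, against 4.68% of all), of which *B3gntl1* also has CACGTG. A match describes the letters of the window and was not tested against binding.

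Other chain-extending members moved less evenly. *B3gnt5*, the synthase that starts lacto-series glycolipids, had 1372 and 1555 normalized counts in control and 3666 and 4847 in *Bmal1* cKO. Both *Bmal1* cKO libraries were higher, with a log2 fold change of 1.53 (SE 0.16, adjusted p = 0.00114), but 0.38 (adjusted p = 0.118) after correction. *B3gnt3*, which extends core 1 and had the highest level per kb of all members in control, counted 5778 and 6176 normalized counts in control and 4495 and 3729 in *Bmal1* cKO. It was called lower at -0.54 (SE 0.12, adjusted p = 0.0145) and not after correction, at 0.013 (adjusted p = 0.945), nor without *Bmal1* cKO library 2 or either control library (adjusted p up to 0.0935). *B4galt5* and *B4galt6* both make lactosylceramide. *B4galt5* (GRCm38 chromosome 2, positions 167298444 to 167349183) had 735 and 864 in control against 393 and 412 in *Bmal1* cKO and was lower at -0.98 (SE 0.13, adjusted p = 0.00209) and -0.47 (adjusted p = 0.0461) corrected. *B4galt6* had 1724 and 1824 in control against 2592 and 2502 in *Bmal1* cKO and was higher at 0.52 (adjusted p = 0.00524), with 0.0018 (adjusted p = 0.988) corrected. The ratio of *B4galt6* to *B4galt5* normalized counts was 2.35 and 2.11 in control and 6.60 and 6.07 in *Bmal1* cKO, a log2 difference of 1.51 that was 0.47 after correction, in a pair picked after the values were seen.

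*B4galt3* (GRCm38 chromosome 1, positions 171270328 to 171276896), a galactosyltransferase of N-glycan antennae, had 425 and 417 normalized counts in control and 216 and 207 in *Bmal1* cKO. The libraries of each group were within a few counts of one another, and the log2 fold change of -0.99 (SE 0.13, adjusted p = 0.00231) stayed at -0.94 (adjusted p = 0.007) after correction, its exons having 50.8% GC. About 14.5% of the *B4galt3* exon bases overlap *Ppox* on the opposite strand, which unstranded counts cannot separate. *B4galt1*, the main galactosyltransferase of the class, had 2590.2 and 2303 in control against 3404 and 2601 in *Bmal1* cKO and was not called in either fit (0.28 (adjusted p = 0.163) uncorrected). *B4galnt1*, the GM2 and GD2 ganglioside synthase, counted 844 and 849.6 normalized counts in control and 325 and 412 in *Bmal1* cKO. It was lower at -1.21 (SE 0.15, adjusted p = 0.00177) and at 0.11 (adjusted p = 0.655) corrected, where the sign changed. *B4galnt1* shares 20.7% of its exon bases with *Slc26a10* on the opposite strand. *B4galnt4*, a second LacdiNAc enzyme, fell uncorrected by 1.33 on the log2 scale and gave -0.16 (adjusted p = 0.665) corrected, its call being lost without *Bmal1* cKO library 2 or either control library (adjusted p up to 0.0811). *B4galnt2*, which makes the Sda antigen of colon, had 1075 and 1371 in control against 1222 and 1723 in *Bmal1* cKO, with overlapping groups. *B3gnt2*, the chief poly-N-acetyllactosamine synthase, was not called at 0.26 (adjusted p = 0.1), and 58.6% of its exon bases are shared with *Gm28048* on the same strand.

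Fucosyltransferases were 7 listed and 6 tested, of which 3 were called higher and 3 were not called. Leaving aside *Fut1*, the other 5 had both *Bmal1* cKO libraries above both control libraries, as had 40.3% of all tested genes, and their median log2 fold change was 0.61 and 0.76 corrected. With *Fut1* the median of 0.73 was 0.80 corrected and 0.50 with libraries scaled to equal totals. *Fut9* (GRCm38 chromosome 4, positions 25609332 to 25800244), which adds α1,3-fucose to make Lewis x, had 44.8 and 62.7 normalized counts in control and 758 and 756 in *Bmal1* cKO. Every control value was far below every *Bmal1* cKO value. The ratio of means was 14.1 and the log2 fold change 3.81 (SE 0.21, adjusted p = 0.000533), the largest rise of any tested member. After correction the log2 fold change was 2.35 (adjusted p = 0.00311), still the largest rise. Its exons hold 35.0% GC, the lowest value of the tested members, and per kb its level remained low in *Bmal1* cKO at 54.7 against 428 for *Fut4*. *Fut4*, the other Lewis x enzyme here, had 1067 and 1464 in control against 1685 and 1806 in *Bmal1* cKO, with no overlap. It gave 0.48 (adjusted p = 0.0526) uncorrected and 0.85 (adjusted p = 0.0183) corrected, and between 0.25 and 0.71 on leaving out 1 library, called in 1 of the 4 fits.

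*Fut2*, the secretor enzyme that puts α1,2-fucose on mucin chains, had the highest level per kb of the class and counted 4617 and 3721 normalized counts in control and 5147 and 7365 in *Bmal1* cKO. All *Bmal1* cKO values were above the control values, but the spread within groups was wide, and the uncorrected test gave 0.57 (SE 0.20, adjusted p = 0.0587). The corrected fit gave 0.76 (adjusted p = 0.0368), while leaving out 1 library gave 0.31 to 0.83 (adjusted p from 0.0499 without *Bmal1* cKO library 1 to 0.27), with no call in the other 3 fits or with libraries scaled to equal totals. *Fut1*, its low-level relative, had 5.07 and 10.2 in control against 16.5 and 23.0 in *Bmal1* cKO. *Fut8*, which adds the core α1,6-fucose of N-glycans, had 1638 and 1650.0 normalized counts in control and 2673 and 3247 in *Bmal1* cKO. It rose by 0.84 (SE 0.12, adjusted p = 0.00293) uncorrected and was at -0.038 (adjusted p = 0.821) after correction, with 42.9% GC. *Fut11* counted 228 and 174 in control against 315 and 296 in *Bmal1* cKO and was called higher at 0.61 (SE 0.19, adjusted p = 0.0361) but not after correction, at 0.30 (adjusted p = 0.269), nor without control library 2 or either *Bmal1* cKO library (adjusted p up to 0.165).

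Sialyltransferases numbered 19, of which 14 were tested, 1 was called higher, 5 lower and 8 were not called. The median log2 fold change was -0.58 and -0.32 after correction, or -0.40 and -0.039 without *St3gal2* and *St8sia6*, the uncorrected value being the lowest of the classes either way. *St3gal1*, which caps core 1 O-glycans with sialic acid (GRCm38 chromosome 15, positions 67102875 to 67176830), had 565 and 504 normalized counts in control and 74.1 and 126 in *Bmal1* cKO. Both *Bmal1* cKO libraries were several-fold below both control libraries. The log2 fold change was -2.45 (SE 0.28, adjusted p = 0.00145), and -2.23 (adjusted p = 0.00567) after correction. Over leaving out each library it ranged from -2.83 to -2.08. *St3gal1* is also well expressed by lymphocytes. The summed counts of 12 leukocyte markers, of lymphocytes and other cells, were 13121 and 21832 in control and 1451 and 1695 in *Bmal1* cKO. Of the 12, 11 were called lower and none was at 0 reads in any library. *S100a8* and *S100a9*, which are not lymphocyte markers, counted 8066 and 7187 in control library 2. The T cell marker *Cd3e* was not called, at 41.4 and 3.39 in control against 3.09 and 17.6 in *Bmal1* cKO. The B cell marker *Cd79a* had 559 and 43.2 in control against 5.14 and 6.76 in *Bmal1* cKO. The part of leukocyte RNA in the *St3gal1* result was not tested. *St3gal2*, which uses the same acceptor, was at 63.4 and 22.9 in control against 6.17 and 4.06 in *Bmal1* cKO, below in both *Bmal1* cKO libraries, and is 1 of the 5 counted lower although it passed the minimum mean through control alone.

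*St3gal3*, *St3gal4* and *St3gal6* sialylate galactose at the ends of type 1 and type 2 chains. *St3gal3* had 812 and 1216 normalized counts in control and 315 and 322 in *Bmal1* cKO. It fell in both *Bmal1* cKO libraries, at -1.64 (SE 0.20, adjusted p = 0.00196), and gave -0.54 (adjusted p = 0.106) after correction. *St3gal6* had 1267 and 1611 normalized counts in control and 2554 and 2864 in *Bmal1* cKO, and rose uncorrected by 0.92 (SE 0.14, adjusted p = 0.00401). The corrected value was 0.13 (adjusted p = 0.503), and without *Bmal1* cKO library 2 the adjusted p was 0.0511. About 26.0% of its exon bases overlap *Dcbld2* on the opposite strand, which unstranded counts cannot separate. *St3gal4* counted 1405 and 3276 in control against 3078 and 3848 in *Bmal1* cKO, with the control libraries 2.33-fold apart. It was not called at 0.68 (adjusted p = 0.187), nor at 0.94 (adjusted p = 0.116) corrected. About 14.1% of its exon bases overlap *4930581F22Rik* on the opposite strand. *St6galnac6*, which adds sialic acid to GalNAc or GlcNAc within a chain, had the highest level per kb of the class in control. In *Bmal1* cKO *St3gal4* was higher per kb on the mean and in library 2, but not in library 1. *St6galnac6* counted 6922 and 8312 normalized counts in control and 5674 and 5303 in *Bmal1* cKO. It was called lower uncorrected at -0.47 (SE 0.13, adjusted p = 0.025) and higher corrected at 0.52 (adjusted p = 0.034). Leaving out control library 2 or either *Bmal1* cKO library took its uncorrected adjusted p to as much as 0.162. *St6gal1*, the α2,6-sialyltransferase of N-glycans, had 654 and 959 in control against 358 and 669 in *Bmal1* cKO, with overlapping groups and -0.69 (adjusted p = 0.129). *St8sia5*, a ganglioside enzyme, was lower at -1.66 (adjusted p = 0.0183) and not called corrected at -1.07 (adjusted p = 0.0992), nor without control library 2 or either *Bmal1* cKO library (adjusted p up to 0.12).

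Some members were nearly absent from the *Bmal1* cKO libraries. *Galnt15* had 64 reads in the control libraries and 1 in the *Bmal1* cKO libraries. *B4galt2* had 54 reads against 1, and *B3gnt8* 46 against 2. In each case control library 1 held most of the control signal, with 44.8 and 9.32 normalized counts for *Galnt15*. Library 1 of the controls also carried the most stromal RNA: the summed counts of 11 stroma and endothelium markers were 15239 and 3086 in control and 503 and 570.4 in *Bmal1* cKO, with 9 of 11 called lower and none at 0 reads in any library. The part of that RNA in these low values was not tested. *B4galt2* shares 28.2% of its exon bases with *Ccdc24* on the same strand.

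The 7 members under the mean of 10 were *Gcnt7*, *Fut10*, *St3gal5*, *St6gal2*, *St6galnac1*, *St6galnac3* and *St6galnac5*. *St3gal5*, the GM3 ganglioside synthase, had 39 reads in control and 1 in *Bmal1* cKO. *St6galnac1*, which makes the sialyl-Tn structure, had 1.69 and 6.78 normalized counts in control and 3.09 and 8.11 in *Bmal1* cKO, too few to compare. *St6galnac2* was listed under 2 identifiers whose exons overlap, with 184 and 253 in control against 125 and 269 in *Bmal1* cKO for the first and 21.1 and 23.7 in control against 13.4 and 10.8 in *Bmal1* cKO for the second, and neither was called.

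Log2 fold changes declined with rising GC content among the members as among all genes. Spearman's rho between GC content and log2 fold change was -0.59 over the 70 tested members and 0.10 after correction, and -0.64 and 0.20 over the 63 that passed the minimum mean in both groups, as a description, since members share libraries and are not replicates. Of those 63, 15 had under 45% GC, of which 11 were called higher and 4 were not called, with a median log2 fold change of 0.84, and over all genes in that range the median was 0.86 with 63.0% called higher. At 55% GC or more lay 17 of them, 2 called higher and 6 lower, with a median of -0.53 beside -1.08 for all genes and 66.0% called lower. The 2 were *B4galnt3* and *B3gnt7*, which rose against this trend, while *Gcnt2* and *Gcnt3*, both near 46.5% GC, lay below it. The source of the trend was not tested.

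**Figure D3:**
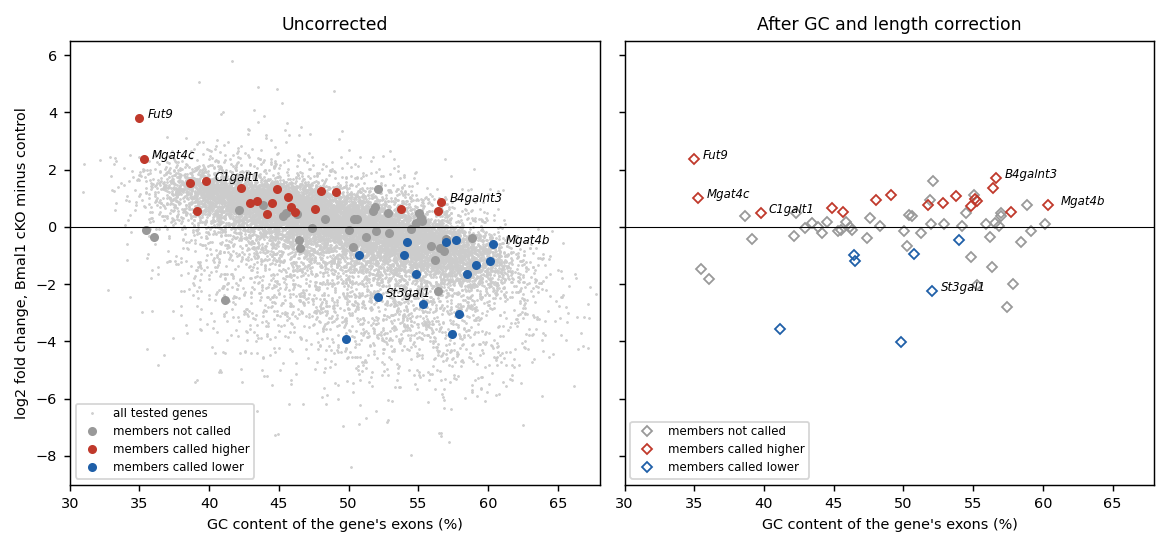
Log2 fold change, *Bmal1* cKO minus control, against the GC content of each gene's exons in percent, uncorrected on the left with all tested genes in light grey, and after GC and length correction on the right with members only. Members called higher are red, called lower blue and not called dark grey. The downward slope on the left (rho -0.59 over members) is flat on the right (0.10), where *Fut9*, *Mgat4c*, *C1galt1* and *B4galnt3* remain above 0 and *St3gal1* below.

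The make-up of each class by library was computed from normalized counts per kb of exon, without the correction. *C1galt1* held 42.8% and 32.7% in control and 64.6% and 62.3% in *Bmal1* cKO of the core and branch class, and *Gcnt3* held 19.3% and 27.5% in control and 6.96% and 8.33% in *Bmal1* cKO. *Mgat4c* held 16.7% and 15.4% in control and 43.0% and 45.7% in *Bmal1* cKO of the N-glycan branching class. *Mgat4b* went the other way, with 40.6% and 41.7% in control and 14.2% and 14.8% in *Bmal1* cKO. Of these enzymes, the member with the lower exon GC content gained share (*Mgat4c*, 35.3%) and the member with the higher lost it (*Mgat4b*, 60.4%). Among the chain-extending enzymes *B3galt5* held 24.7% and 19.5% in control and 38.1% and 39.6% in *Bmal1* cKO, and *B3gnt3* 26.4% and 28.8% in control and 15.7% and 12.5% in *Bmal1* cKO. *Fut2* kept the largest share of fucosyltransferase level in all 4 libraries, between 51.7% and 61.6%, with overlapping groups. In the sialyltransferase class *St6galnac6* held 51.3% and 42.9% in control and 39.5% and 33.5% in *Bmal1* cKO, and *St3gal3* 10.5% and 10.9% in control and 3.81% and 3.53% in *Bmal1* cKO. *St3gal4* went the other way with 17.2% and 27.8% in control and 35.3% and 40.0% in *Bmal1* cKO, as did *St3gal6* with 7.33% and 6.48% in control and 13.9% and 14.1% in *Bmal1* cKO. The summed normalized counts of all 77 members were 88319.7 and 96283 in control and 151116 and 164642 in *Bmal1* cKO, a 1.71-fold ratio, or 1.44-fold per kb, beside 1.17-fold and 0.980-fold for all listed genes. *Mgat4c*, *B3galt5*, *C1galt1* and *Mgat4a* together made up 79.0% of the rise in the sum. Over the 70 tested members the ratio of the sums was 1.42 after correction, beside 1.02 for all 13975 genes corrected.

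**Figure D4:**
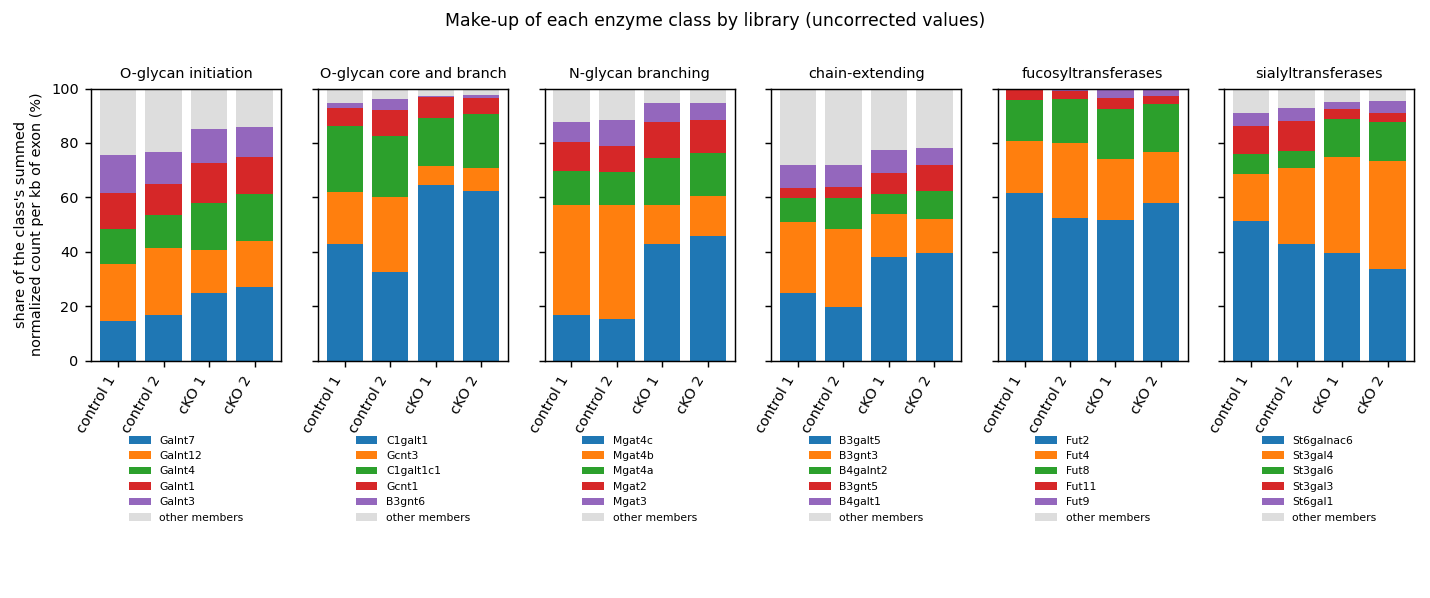
Share of each enzyme class's summed normalized count per kb of exon, in percent, held by its 5 leading members and the other members together, as stacked bars for each of the 4 libraries. *C1galt1*, *Mgat4c* and *B3galt5* take larger shares in both *Bmal1* cKO bars, *Gcnt3*, *Mgat4b* and *B3gnt3* smaller ones, and the fucosyltransferase bars look alike.

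The enzymes' partners were read from lists of the same pathway. Of 24 listed genes of sugar donor synthesis and transport, 9 were higher, 7 lower and 8 not called, or 37.5% and 29.2% beside the 29.0% and 27.7% of all genes, with a median log2 fold change of 0.22. After correction 7 were higher and 1 lower with a median of 0.28, beside 17.0% and 18.1% of all genes. Of the 9 called higher uncorrected, 4 kept the call. *Ugp2*, *Fpgt*, *Slc35d1*, *Gnpnat1* and *Gmds* lost it, *Gmds* going from 0.49 to -0.33. With libraries scaled to equal totals 8 were higher and 8 lower with a median of -0.0030. *Slc35a3*, a Golgi UDP-GlcNAc transporter, had 5046 and 5792 normalized counts in control and 16249 and 18050.4 in *Bmal1* cKO. It rose by 1.66 (SE 0.13, adjusted p = 0.00059) on the log2 scale and by 0.48 (adjusted p = 0.0336) after correction. *Slc35a1*, the CMP-sialic acid transporter, was higher in both fits at 1.17 (adjusted p = 0.00214) and 0.55 (adjusted p = 0.0317). *Gfpt1*, the entry enzyme of the hexosamine pathway, was so too, at 1.21 (adjusted p = 0.00168) and 0.50 (adjusted p = 0.0442). *Nans*, the sialic acid synthase, was lower at -0.59 (adjusted p = 0.0131) and not called corrected at -0.42 (adjusted p = 0.0531), and *Fcsk*, which salvages fucose, was lower at -0.71 (adjusted p = 0.0241) and higher corrected at 0.63 (adjusted p = 0.0352). The other 5 called lower, *Tsta3*, *Slc35c1*, *Uap1l1*, *Galk1* and *Galt*, were not called after correction. *Cmas* and *Gne*, which activate and make sialic acid, were not called, at -0.11 (adjusted p = 0.486) and 0.090 (adjusted p = 0.628). Of the 6 Golgi mannosidases that prepare N-glycans for branching, 3 were higher, 2 lower and 1 not called, and *Man1a2* (1.44 (adjusted p = 0.000533), corrected 0.57 (adjusted p = 0.00845)) and *Man2a1* (0.80 (adjusted p = 0.0014), corrected 0.35 (adjusted p = 0.0306)) were called higher in both fits. *Man1c1* was called lower in both, with 109 and 74.5 in control against 19.5 and 6.76 in *Bmal1* cKO (-2.85 (adjusted p = 0.0104), corrected -1.90 (adjusted p = 0.0463)).

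The protein backbones that carry these glycans were read from a list of mucin genes. Of 8 listed 6 were tested, 3 were lower and 3 not called (2 lower after correction, 5 with libraries scaled to equal totals), with a median log2 fold change of -0.87 (-0.77 corrected). Over all genes 27.7% were called lower, 18.1% after correction and 34.9% with libraries scaled to equal totals. *Muc2*, the gel-forming mucin of goblet cells, had 62753 and 101737 normalized counts in control and 24129 and 37690.3 in *Bmal1* cKO and gave -1.41 (SE 0.34, adjusted p = 0.0172), with -1.14 (adjusted p = 0.0539) corrected. *Muc1* and *Muc4*, both membrane mucins, were lower in both fits, *Muc1* at -1.91 (adjusted p = 0.000796) and -1.37 (adjusted p = 0.00567) corrected and *Muc4* at -1.41 (adjusted p = 0.00312) and -1.50 (adjusted p = 0.00719) corrected. *Muc13*, another membrane mucin, had 33050.4 and 32079 in control against 25529 and 26838 in *Bmal1* cKO and was not called at -0.31 (adjusted p = 0.114). The summed counts of 9 goblet cell markers, *Muc2* included, were 240349 and 488123 in control and 74835 and 107260.0 in *Bmal1* cKO. Of the 9, 6 were called lower and 3 not called, and after correction 4 were lower, beside 27.7% and 18.1% of all genes. Control library 2 had 2.03 times the goblet sum of control library 1, and 1.72 and 1.66 times the absorptive colonocyte and leukocyte sums. In the leukocyte list *S100a8* (1424 and 8066 in control libraries 1 and 2), *S100a9* (1096 and 7187), *Itgam* and *Lcp1* were higher in control library 2. The other leukocyte markers were lower there, among them *Ptprc* (1259 and 745) and *Lyz2* (3749 and 1335). Of 54 members with a mean of at least 100, 5 were over 1.5 times as high in control library 2. These were *Gcnt3*, *Gcnt1*, *B3gnt6*, *Galnt5* and *St3gal4*, at 1.84 to 2.92 times, and the share of all genes over that limit was not computed. Between groups *Gcnt1* (0.58), *St3gal4* (0.68) and *Galnt5* (0.40) had positive log2 fold changes, unlike the goblet sum. *Gcnt3* (-0.74) and *B3gnt6* (-1.17) had negative ones, and none of the 5 was called uncorrected. The part of RNA of any of these cell types in these members was not tested.

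**Figure D5:**
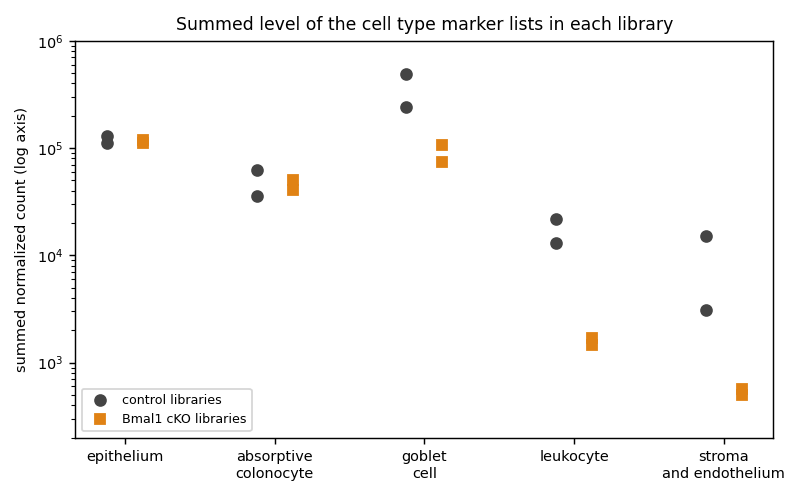
Summed normalized count of each cell type marker list in each library, on a log axis, with control libraries as grey circles and *Bmal1* cKO libraries as orange squares. Epithelial and absorptive colonocyte sums overlap between groups, while goblet cell, leukocyte and stroma and endothelium sums are lower in both *Bmal1* cKO libraries. In the absorptive list, uncorrected, *Slc26a3* was called higher, *Car4*, *Cdhr5* and *Ceacam20* lower, and the other 4 markers were not called.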

How the data were processed

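Colonic epithelial cells of 2 control and 2 *Bmal1* cKO mice on day 7 of DSS colitis were sequenced in bulk. Per the labels and methods, the authors used STAR for alignment to GRCm38 and DESeq2 for normalization, and the values they deposited are a signal, a gene's counts scaled by a library's size factor. The counter, its strand setting and the annotation are not given in the sources used here, and labels and methods name different library kits. The deposited comparison columns (log2 fold change with SE, a Wald score, p-values and adjusted p-values, computed by the authors) were not used. The deposited values gave back whole reads, 100% of them within 0.01 of a whole number, with 10312791 to 14156639 reads per library. No gene with a mean below 3.39 was listed. Replicates of a group differed beyond sampling noise (chi-square per gene 44.6 in control and 12.0 in *Bmal1* cKO).

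The scale was log2(value + 1), on which changes of low genes are understated, and 13983 genes (minimum mean 10) were tested by limma 3.58.1 (R 4.3.3) with a mean-variance trend. Levels per kb used the summed exon length of GENCODE M21. The GC and length correction was a loess (span 0.3) of each library on 13975 genes, with medians kept. Steps were run on simulated counts with the same dispersion in every gene and library and a linear GC slope. The real libraries are not of this form, so the simulation does not check the calls made here. Members named were, per class, up to 3 rises and 3 falls with a mean of at least 100 and an adjusted p under 0.05, and the highest level per kb, and others were chosen after their values were seen. The members and lists were chosen with earlier results of these data known. Alternatives were pseudocounts 0.5 and 5, no filter, a minimum mean of 50, library total and TMM scaling, edgeR 4.0.16 and DESeq2 1.42.0 on the recovered reads, a replicate block, the correction with and without the block, and leaving out each library, where a lone library is assumed to vary like the other group. Protein sequences were not used here.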

Additional observations from a re-analysis of the deposited data

How the results depend on the processing

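The count of members called higher was 20, lay between 14 and 21 over the alternatives that kept all libraries, and ranged from 13 to 20 on leaving out each library. The count called lower was 15, was 7 after the GC and length correction with or without the block, and ranged from 7 to 13 on leaving out each library. The class median of the core and branch enzymes went from 0.55 to -0.37 after the correction, with or without the block, and ranged from 0.12 to 0.51 on leaving out each library. The N-glycan branching median of 0.61 was 0.38 with library totals and ranged from 0.33, without control library 1, to 0.89. For the chain-extending enzymes the median of -0.13 was -0.045 with a minimum mean of 50, -0.36 with library totals, -0.075 with edgeR, -0.074 with DESeq2 and 0.070 after the correction, with or without the block, and ranged from -0.30 to -0.055. The fucosyltransferase median of 0.73 was 0.50 with library totals and ranged from 0.68 to 0.91, the initiation median of 0.42 was 0.19 with library totals and 0.13 after the correction, with or without the block, and ranged from 0.18 to 0.53, and the sialyltransferase median of -0.58 was -0.84 with no filter, -0.34 with a minimum mean of 50, -0.81 with library totals and -0.32 after the correction, with or without the block, and ranged from -0.79 to -0.42. Of 375 values for 25 named members over the alternatives, 321 kept direction and call, 39 lost the call, 3 gained it and 12 turned sign. The 12 all came from the correction, each of the same size with and without the block, namely *Mgat4b* 0.77, *Mgat1* 0.36, *C1galt1c1* -0.41 (called lower with the block, adjusted p = 0.047), *B4galnt1* 0.11, *Fut8* -0.038 and *St6galnac6* 0.52. The replicate block gave 21 members higher and 18 lower, and the same-numbered libraries deviated with a correlation of -0.091 over 13983 genes, so the numbers were not taken as pairs. The cause of these changes was not tested beyond the GC trend itself. With 2 libraries a group, members under 10 normalized counts could not be tested, and low members rest on few reads.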

Other observations

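The balance of some enzymes was read as ratios, in pairs picked after the values were seen and not tested. *St3gal4*, which sialylates type 2 chains, stood to *St3gal1*, which sialylates core 1, at 5.83 and 15.2 per kb in control and 97.4 and 71.8 in *Bmal1* cKO. Their exons differ by only -0.191 percentage points in GC content, and the ratio differed by 3.15 on the log2 scale uncorrected and 3.17 corrected. *C1galt1*, which makes core 1, stood to *Gcnt3*, which branches it, at 2.22 and 1.19 per kb in control and 9.28 and 7.49 in *Bmal1* cKO, a log2 difference of 2.36 uncorrected and 1.68 corrected. *St3gal6* to *St3gal3* was 0.700 and 0.594 per kb in control and 3.64 and 3.99 in *Bmal1* cKO, where the log2 difference of 2.56 was 0.67 after correction and the exons differ by -15.0 percentage points in GC.

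The 5 members with no uncorrected call that were called higher after the correction, against 4.48% of all genes, were *Galnt6*, *Galnt12*, *Fut2*, *Fut4* and *B4galt7*, and the 3 such members called lower, against 4.38%, were *Gcnt2*, *Gcnt3* and *St8sia6*. *B4galt7*, which builds the proteoglycan linker, had 199 and 197 normalized counts in control and 236 and 222 in *Bmal1* cKO, with 0.20 (adjusted p = 0.292) uncorrected and 0.89 (adjusted p = 0.011) corrected from limma. *St8sia6*, which adds sialic acid to sialylated O-glycans, had 40.6 and 11.9 in control against 1.03 and 6.76 in *Bmal1* cKO, and passed the minimum mean through control alone.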
